A study of Homo sapiens with 6 samples.

Results

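The ERK feedback and output genes were examined in NCI-H660 (H660) cells as a reading of ERK pathway output. They comprised 10 genes chosen by symbol and matched exactly in the expression tables, namely DUSP4, DUSP5, DUSP6, SPRY1, SPRY2, SPRY4, SPRED1, ETV4, ETV5 and PHLDA1. All 10 were found among the 28008 gene symbols of the count table and the 25673 of the TPM table. A filter on low counts left 17026 genes for testing, of which 9 were members, and SPRED1 did not pass it.

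H660 is a line of neuroendocrine prostate cancer (NEPC), and these cells carried an shRNA against MUC1 under the control of a doxycycline (DOX)-inducible vector. MUC1 encodes a mucin, whose C-terminal part, MUC1-C, spans the cell membrane. RNA-seq was run on 3 DOX-negative libraries, from cells given 0.1% DMSO as vehicle, and 3 DOX-positive libraries, from cells given 500 ng/ml DOX, which the study describes as a 7-day exposure. All 6 libraries came from cells with the same MUC1 shRNA vector. The sample labels leave the treatment fields without this information, so the groups were read from the sample titles, and the cells of each group are described as triplicate cultures. A single shRNA was used, and a comparison with DOX-treated cells that lack the MUC1 shRNA is not analysed here, so a response to DOX and a response to MUC1 silencing cannot be told apart.

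The kinases ERK1 and ERK2 lie at the end of the cascade that runs from receptor tyrosine kinases through RAS, RAF and MEK. Active ERK raises the transcription of genes that turn the cascade down again, and the mRNA of these genes is therefore widely used as a reading of pathway output. The dual-specificity phosphatases DUSP4, DUSP5 and DUSP6 remove phosphate from ERK or related kinases, the Sprouty proteins (SPRY1, SPRY2, SPRY4) and SPRED1 act upstream at the receptor and at RAS, and ETV4 and ETV5 are ETS-family transcription factors. PHLDA1 encodes a pleckstrin homology-like protein that is induced by mitogens. Levels of mRNA do not give the phosphorylation of ERK, which was not analysed here. The study reports, from immunoblots, that phosphorylated ERK was lower when MUC1-C was silenced with DOX in H660 cells carrying the MUC1 shRNA vector.

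The libraries held between 47620696 and 74061121 counts each, and between 20253 and 20800 genes had at least 1 count. The targeted gene followed the labels, with a MUC1 level of 79.6 to 90.2 CPM (normalized counts scaled to a common library size) in the DOX-negative and 29.9 to 37.2 CPM in the DOX-positive libraries (log2 fold change -1.32, SE 0.096, edgeR adjusted p = 0.00017). Neuroendocrine markers were abundant, with 7 of 7 genes tested and a summed level of 275 to 387 TPM in the DOX-negative and 252 to 403 TPM in the DOX-positive libraries. The epithelial markers EPCAM, KRT8 and KRT18 summed to 511 to 706 TPM in the DOX-negative and 606 to 799 TPM in the DOX-positive libraries. Some markers of other cell types were detected at low levels and others were not.

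Across all genes, 829 of the 17026 tested (4.87%) passed an adjusted p of 0.05 in edgeR's quasi-likelihood test with Benjamini-Hochberg adjustment, here termed called. Of these, 496 were higher (2.91%) and 333 lower (1.96%) in the DOX-positive libraries. Among the 9 tested members, 4 were called. SPRY4, PHLDA1 and DUSP5 rose and DUSP4 fell. The median log2 fold change was 0.49 over the tested members and 0.00034 over all tested genes, and 7 of the 9 members lay above 0. The members were chosen with earlier results of these data known, so setting their share beside that of all genes is not a test. The calls varied with the libraries used, as 2 or 3 members were called when DOX-negative replicate 1 or any DOX-positive replicate was left out. Without DOX-negative replicate 2, 0 members were called, as was also the case without DOX-negative replicate 3, although 6 of 9 had an unadjusted p under 0.05 in each of these fits and all 9 kept their sign. In those fits the number called over all genes also dropped, to 127 and 58. An unadjusted p under 0.05 was found there for 2640 of 17243 and 2414 of 17207 tested genes. The values below are normalized CPM, which are counts divided by library sizes scaled with TMM factors, unless TPM (scaled by gene length as well) is named. Because whole cultures were profiled, fewer cells that express a gene and less RNA of it per cell cannot be told apart.

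**Figure D1:**
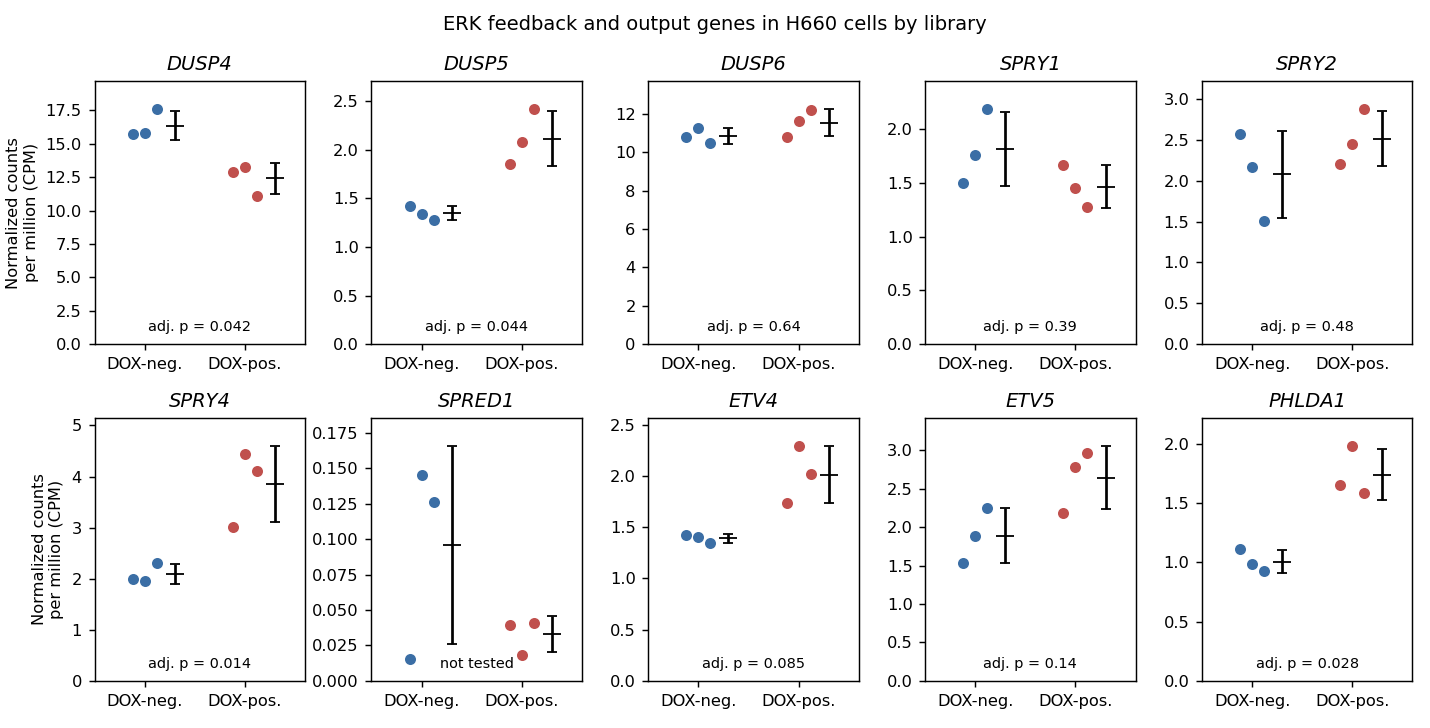
Normalized CPM (y axis, from 0, a separate scale for each gene) of the 10 members in the 3 DOX-negative (blue) and 3 DOX-positive (red) libraries, each point 1 library, replicates 1 to 3 from left to right, with the mean and SD beside them and the edgeR adjusted p in each panel. The groups do not overlap for DUSP4, DUSP5, SPRY4, ETV4 and PHLDA1.

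Promoter windows of the 2 members with the smallest adjusted p, and of DUSP6, a widely used ERK reporter gene that was not called, are shown for their ETS core letters, since ERK acts on ETS-family factors. Each is the 250 bases just before an annotated RefSeq start (assembly GRCh38.p14), written 5′ to 3′ on the gene's strand. The start used for SPRY4 is an internal one, since the window lies inside the interval annotated for the gene. Every GGAA, or TTCC where it lies on the opposite strand, is in capitals.
SPRY4 (chr5:142324248-142324497, minus strand): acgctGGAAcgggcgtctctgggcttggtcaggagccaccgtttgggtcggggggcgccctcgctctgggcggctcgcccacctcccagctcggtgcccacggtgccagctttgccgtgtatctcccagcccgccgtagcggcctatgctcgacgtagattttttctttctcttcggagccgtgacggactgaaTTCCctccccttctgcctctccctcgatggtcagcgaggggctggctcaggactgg
PHLDA1 (chr12:76031777-76032026, minus strand): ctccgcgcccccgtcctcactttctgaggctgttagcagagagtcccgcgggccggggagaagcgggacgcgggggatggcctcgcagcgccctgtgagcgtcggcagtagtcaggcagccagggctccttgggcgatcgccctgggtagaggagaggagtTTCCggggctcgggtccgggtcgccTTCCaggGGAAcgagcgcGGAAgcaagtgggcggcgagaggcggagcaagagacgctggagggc
DUSP6 (chr12:89352502-89352751, minus strand): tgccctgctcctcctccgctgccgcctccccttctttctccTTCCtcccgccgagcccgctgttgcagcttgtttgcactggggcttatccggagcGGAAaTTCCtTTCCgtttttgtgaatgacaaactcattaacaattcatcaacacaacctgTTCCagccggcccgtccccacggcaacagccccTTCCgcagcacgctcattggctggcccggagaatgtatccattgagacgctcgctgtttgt
The core occurred 2 times for SPRY4, 4 times for PHLDA1 and 6 times for DUSP6, against a median of 3 over 35116 promoter windows of the same length, of which 92.7% held at least 1. Promoter windows were found for 6 of the 10 members, namely these 3 with SPRY1, SPRY2 and SPRED1. Longer motifs of factors at ERK target genes were sought on both strands as the cAMP response element TGACGTCA (in 1.65% of all windows), the AP-1 site TGANTCA (6.57%), the ETS site CCGGAAG (8.52%), the capicua sites TGAATGAA (1.40%) and TGAATGGA (0.832%) and the serum response factor CArG box (1.16%), together with the TATA box letters TATAAA (10.7%). The ETS site contains the core above. None of these longer motifs, in the letters given, was found in the 3 windows shown. Capicua sites with C as the second letter were not sought. The DUSP6 window as printed does hold such a site, on the opposite strand and close to the annotated start. It is TGAATGGA with C in place of its second letter. How often such sites occur in all windows was not tested. The single match of the letters sought among the members was an ETS site in 1 of the 2 windows of SPRY1, which was not called. These matches describe the letters in the windows and nothing was measured at them.

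DUSP4 encodes an inducible nuclear phosphatase that acts on ERK, JNK and p38. Its level was 15.7, 15.8 and 17.6 CPM in DOX-negative replicates 1, 2 and 3 and 12.9, 13.3 and 11.1 CPM in DOX-positive replicates 1, 2 and 3. Each DOX-positive library was below each DOX-negative one, after scaling of counts that were 1003, 977 and 837 in the DOX-negative and 976, 729 and 817 in the DOX-positive libraries. The mean fell from 16.4 ± 1.06 to 12.4 ± 1.17 CPM (SD, n = 3 each), a log2 fold change of -0.40 (SE 0.099, edgeR adjusted p = 0.0424). The fold was 0.759 with a 95% confidence interval of 0.654 to 0.882. In TPM the groups overlapped, with 1.09 to 1.27 TPM in the DOX-negative and 0.797 to 1.17 TPM in the DOX-positive libraries. The log2 fold change kept its sign without each library (-0.44 to -0.32), but the gene was called in only 1 of those 6 fits, the one without DOX-positive replicate 2.

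DUSP5 encodes a nuclear phosphatase specific for ERK and lies at chr10:110497907-110511533 (GRCh38). The DOX-negative libraries held 1.42, 1.34 and 1.28 CPM and the DOX-positive libraries 1.85, 2.07 and 2.41 CPM. All 3 DOX-positive libraries were higher than any DOX-negative one, on counts of 61 to 91 and 114 to 178. The mean rose from 1.35 ± 0.0717 to 2.11 ± 0.283 CPM (SD, n = 3 each), a fold of 1.56 (95% confidence interval 1.22 to 2.00, log2 fold change 0.64, SE 0.16, edgeR adjusted p = 0.0443). DUSP5 lay close to the threshold. Its adjusted p was 0.0509 without scaling factors and 0.0625 with limma-voom, and the gene was called in 1 of the 6 fits that left out a library, that without DOX-positive replicate 1, with log2 fold changes of 0.53 to 0.74. The names table lists 2 pseudogenes of DUSP5, and how the authors' counting treated reads shared with them is not given in the sources used here.

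DUSP6 encodes the cytoplasmic phosphatase specific for ERK and lies at chr12:89347235-89352501. Its level was 10.8, 11.3 and 10.5 CPM in the DOX-negative and 10.8, 11.6 and 12.2 CPM in the DOX-positive group. The groups overlapped, and DOX-positive replicate 1 lay among the DOX-negative values. The log2 fold change was 0.089 (SE 0.093, edgeR adjusted p = 0.64), and the 95% confidence interval of the fold, 0.925 to 1.22, leaves room for a change of that size in either direction. DUSP6 was the most abundant member per length in both groups, with 1.77 ± 0.291 TPM (SD, n = 3) in the DOX-negative and 1.91 ± 0.318 TPM in the DOX-positive libraries.

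Of the 3 Sprouty genes, SPRY4 was called. SPRY4, an inhibitor of receptor tyrosine kinase signalling to RAS, lies at chr5:142310430-142325021 and gave the largest log2 fold change of the 9 tested members. Its level was 1.99, 1.96 and 2.31 CPM in the DOX-negative and 3.02, 4.44 and 4.11 CPM in those with DOX, on counts of 110 to 127 and 228 to 303. The lowest DOX-positive library was above the highest DOX-negative one, and the DOX-positive values were more spread. The mean rose from 2.08 ± 0.196 to 3.85 ± 0.744 CPM (SD, n = 3 each), a fold of 1.85 (95% confidence interval 1.44 to 2.37, log2 fold change 0.89, SE 0.17, edgeR adjusted p = 0.0139). SPRY4 was the member whose call held most often, in 10 of 11 alternative fits on all 6 libraries (not on log2 TPM) and in 4 of the 6 that left out a library, where the log2 fold change was 0.78 to 1.04. The call was lost without DOX-negative replicate 2 and without DOX-negative replicate 3. In TPM the groups did not overlap either, with 0.192 to 0.210 and 0.357 to 0.401 TPM. The transcript SPRY4-IT1, which overlaps SPRY4, had a mean of 0.0945 CPM.

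SPRY2 (chr13:80335976-80341126) and SPRY1 (chr4:123396795-123403760) encode inhibitors of the same family. SPRY2 was at 2.57, 2.17 and 1.51 CPM in the DOX-negative and 2.21, 2.45 and 2.88 CPM with DOX. The groups overlapped, and the DOX-negative libraries were spread over a wider range than the difference between the means (log2 fold change 0.26, SE 0.19, edgeR adjusted p = 0.48). SPRY1 was at 1.50, 1.76 and 2.18 CPM in the DOX-negative and 1.67, 1.45 and 1.27 CPM in the DOX-positive group. These groups also overlapped, at a log2 fold change of -0.30 (SE 0.19, edgeR adjusted p = 0.39). The 95% confidence intervals of the fold were 0.899 to 1.59 for SPRY2 and 0.615 to 1.08 for SPRY1, and both intervals include no change.

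SPRED1, which brings the RAS inhibitor neurofibromin to the membrane, was hardly detected. It had 1, 9 and 6 counts in the DOX-negative and 3, 1 and 3 counts in the DOX-positive libraries, a mean of 3.83 counts per library. With so few reads a difference between the groups was not detectable, and no fold change is given.

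ETV4 (chr17:43527846-43546340) and ETV5 (chr3:186046314-186109089) encode transcription factors of the PEA3 group of the ETS family. ETV4 was at 1.42, 1.41 and 1.34 CPM in the DOX-negative and 1.73, 2.29 and 2.02 CPM in those with DOX. The groups did not overlap and the DOX-negative values lay close together, yet ETV4 was not called (log2 fold change 0.53, SE 0.16, edgeR adjusted p = 0.0851, 95% confidence interval of the fold 1.13 to 1.84). ETV5 was at 1.53, 1.89 and 2.25 CPM in the DOX-negative and 2.18, 2.78 and 2.97 CPM with DOX. The lowest DOX-positive library was just under the highest DOX-negative one, and ETV5 was not called (log2 fold change 0.49, SE 0.18, edgeR adjusted p = 0.136, 95% confidence interval of the fold 1.07 to 1.84). In TPM the groups were separate for both, at 0.233 to 0.315 against 0.384 to 0.438 TPM for ETV4 and 0.213 to 0.278 against 0.306 to 0.396 TPM for ETV5. Neither gene was called in any of the 17 alternative fits in which it was tested. ETV4 overlaps the far more abundant DHX8 (mean 99.9 CPM, log2 fold change -0.06, SE 0.069, edgeR adjusted p = 0.68), and whether reads of the pair were told apart by strand is not given in the sources used here.

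PHLDA1 lies at chr12:76025447-76031776. It was at 1.11, 0.986 and 0.924 CPM in the DOX-negative and 1.65, 1.98 and 1.59 CPM in the DOX-positive group, on counts of 44 to 71 and 109 to 125. Each DOX-positive library was above each DOX-negative one. The mean rose from 1.01 ± 0.0952 to 1.74 ± 0.212 CPM (SD, n = 3 each), a fold of 1.71 (95% confidence interval 1.32 to 2.23, log2 fold change 0.78, SE 0.18, edgeR adjusted p = 0.0281). The call held in 3 of the 6 fits that left out a library, with log2 fold changes of 0.68 to 0.86, and was lost without DOX-negative replicate 2, DOX-negative replicate 3 or DOX-positive replicate 2.

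**Figure D2:**
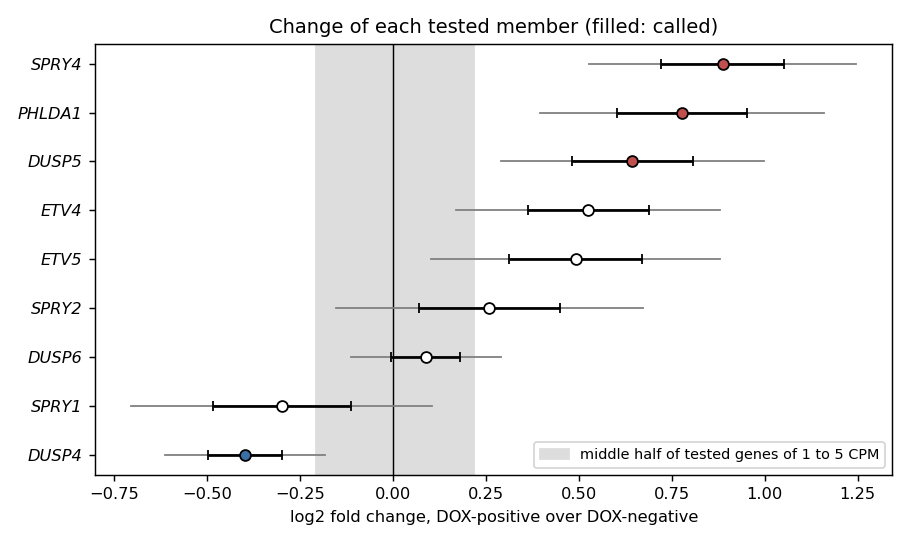
Log2 fold change of DOX-positive over DOX-negative libraries (x axis) for the 9 tested members (y axis), with the SE (black bars) and 95% confidence interval (gray lines) from edgeR, filled where the adjusted p was under 0.05. The gray band spans the quartiles of the 2511 tested genes with a mean of 1 to 5 CPM, from -0.21 to 0.22, and SPRY4, PHLDA1, DUSP5, ETV4, ETV5 and SPRY2 lie to its right and SPRY1 and DUSP4 to its left. DUSP4 and DUSP6 had means above 5 CPM, so the band does not come from genes of their abundance.

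In CPM the groups did not overlap for 5 members, 4 with higher DOX-positive values (DUSP5, SPRY4, ETV4 and PHLDA1) and 1 with lower values (DUSP4), where 28.1% of all tested genes did not overlap in either direction. For each of these 5 the exact two-sided permutation test gave p = 0.10, the smallest that 3 libraries against 3 allow. The members were of low abundance, which bears on how their count of calls is read. Of the members 7 had a mean of 1 to 5 CPM, and of the 2511 tested genes in that range 125 (4.98%) were called higher and 46 (1.83%) lower, with a median log2 fold change of 0.0022 and 50.2% above 0. Of the 7 members in that range 3 were called higher and 0 lower (edgeR, 5 at an unadjusted p under 0.05), and their median log2 fold change was 0.53. Over all abundances 3597 of the 17026 tested genes had an unadjusted p under 0.05. The 10 members stood between the 10.1 and the 52.8 percentile of the 21241 symbols with a TPM above 0.

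Levels were also ordered per length within each group. In the DOX-negative libraries DUSP6 stood first and DUSP4 next at 1.18 ± 0.0887 TPM (SD, n = 3), and the ranges of these neighbours were separate. SPRY2, SPRY1, DUSP5, ETV4 and ETV5 followed at means of 0.338 to 0.249 TPM, with ranges that overlapped from each to the next. SPRY4 (0.202 ± 0.00916 TPM), PHLDA1 (0.0920 TPM) and SPRED1 (0.00698 TPM) came last, each separate from its neighbour. In the DOX-positive libraries DUSP6 and DUSP4 (0.925 ± 0.212 TPM) were again first, DUSP5, ETV4, SPRY2, SPRY4, ETV5 and SPRY1 followed at means of 0.479 to 0.278 TPM with overlapping neighbours, and PHLDA1 (0.160 TPM) and SPRED1 (0.00258 TPM) were last. SPRY4 thus passed from the eighth to the sixth place, and SPRY1 from the fourth to the eighth.

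The ratio between members of a family was compared over the 6 libraries, for 7 pairs. This comparison does not depend on how libraries were scaled, and the pairs were set out after the members' levels had been seen. The log2 ratio of SPRY4 to SPRY1 was 0.40, 0.15 and 0.08 in the DOX-negative and 0.86, 1.61 and 1.69 in the DOX-positive libraries, a change of 1.17 (SE 0.28) without overlap. That of DUSP5 to DUSP4 changed by 1.04 (SE 0.21), from a mean of -3.60 to -2.56, also without overlap. Every DOX-positive library was above every DOX-negative one for DUSP5 and below for DUSP4. The separation of their ratio was thus fixed in advance and adds nothing to the result of each gene. The other pairs of phosphatases, DUSP5 with DUSP6 (0.55) and DUSP6 with DUSP4 (0.49), did not overlap. For each of these 4 pairs the exact two-sided permutation p was 0.10, the smallest possible, and 0.175 after Benjamini-Hochberg adjustment over the 7 pairs. SPRY4 to SPRY2 (0.57), SPRY2 to SPRY1 (0.60) and ETV4 to ETV5 (0.04) overlapped, with exact permutation p of 0.30, 0.30 and 0.90. No pair passed the adjusted threshold, which this design could not have reached.

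**Figure D3:**
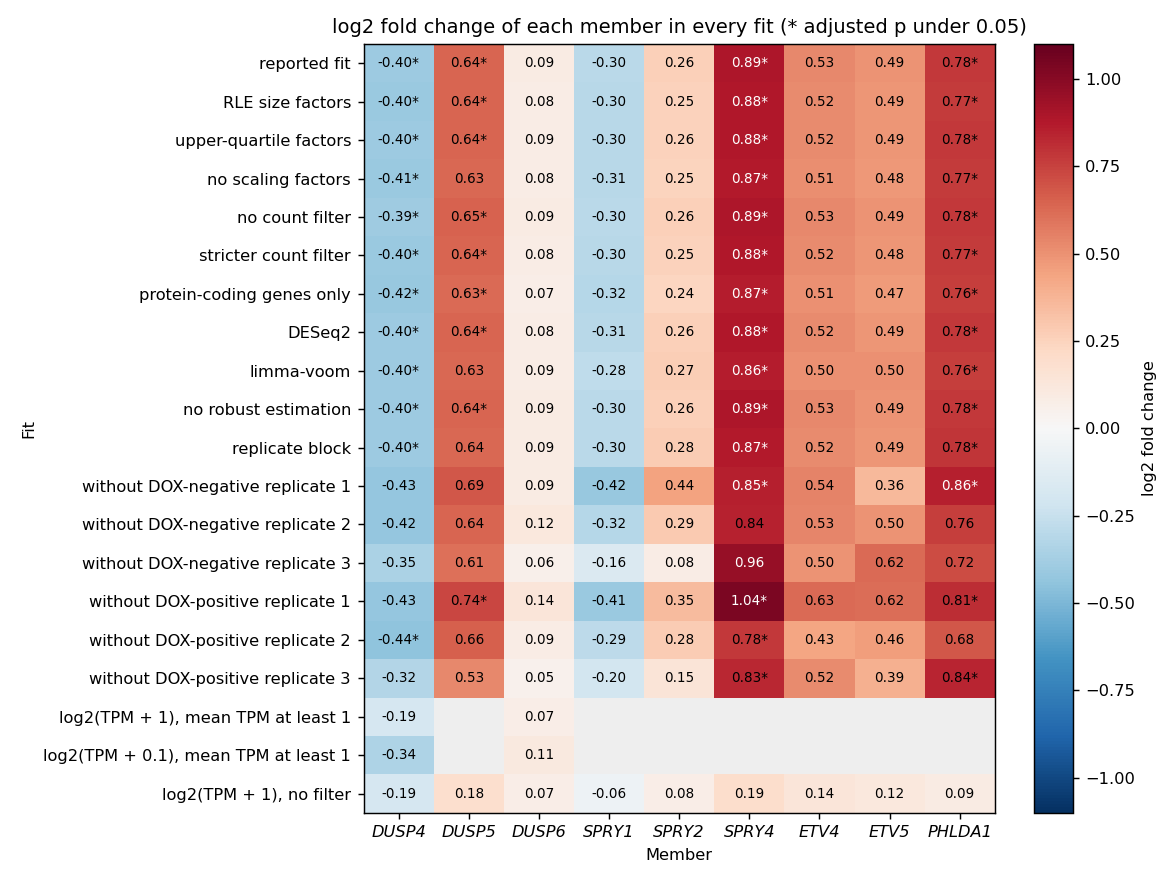
Log2 fold change (color and printed value) of the 9 tested members (columns) in the reported edgeR fit and each of the 19 alternative fits (rows), with an asterisk for an adjusted p under 0.05 and gray where a gene did not pass that fit's filter. Every member keeps its sign in each fit that tested it, while the asterisks of DUSP4, DUSP5, SPRY4 and PHLDA1 are absent without DOX-negative replicate 2 or 3.

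For each called member, the genes with the most similar profile were sought by Pearson correlation of log2 CPM over the 6 libraries, among 14578 tested genes whose mean was 50 counts or more. The 2 closest were SNORD17 (r = 0.997) and MAPK4 (0.996) for DUSP4, RAP2B and BDKRB2 (0.998 each) for DUSP5, PRKCE (0.994) and DGKA (0.993) for SPRY4, and FBF1 (0.999) and TSPOAP1 (0.998) for PHLDA1. Such values are common over 6 points that fall into 2 groups, as between 137 and 482 genes had an r above 0.95 with each member. They describe likeness in these libraries, which share the group difference.

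A second list of 24 genes, here termed further ERK output genes, was also read. It includes relatives of the members, and whether its genes respond to ERK was not tested here. Of its 22 tested genes 7 were called, 6 higher and 1 lower, and 17 lay above 0, with a median log2 fold change of 0.27. The shares of all tested genes called were 2.91% higher and 1.96% lower, and 8528 of 17026 lay above 0. This list was also chosen with earlier results of these data known, so the shares describe it and do not test it. DUSP9, another ERK phosphatase, rose from 1.72 ± 0.248 to 3.28 ± 0.340 CPM (SD, n = 3 each), a log2 fold change of 0.92 (SE 0.154, edgeR adjusted p = 0.00987). LIF, a cytokine of the interleukin-6 family, rose from 3.49 ± 0.174 to 6.55 ± 1.23 CPM (0.91 on the log2 scale, edgeR adjusted p = 0.00781). The ephrin receptor EPHA2 rose from 9.24 ± 0.928 to 16.1 ± 3.03 CPM (0.79, edgeR adjusted p = 0.0105). ERRFI1, a feedback inhibitor of the EGF receptor, rose from 47.0 ± 3.07 to 70.5 ± 9.67 CPM (0.59, edgeR adjusted p = 0.0103), and DUSP8, a phosphatase that prefers JNK and p38, rose from 27.5 ± 0.925 to 36.2 ± 3.05 CPM (0.39, edgeR adjusted p = 0.0263). For these 5 genes each DOX-positive library was above each DOX-negative one. FOSL1, a component of AP-1, was the sixth higher gene and lay outside the rule for naming genes, and was added after its values were seen. It was at 0.153 ± 0.0862 and 0.496 ± 0.0542 CPM on a mean of 21.5 counts (log2 fold change 1.62, SE 0.365, edgeR adjusted p = 0.028). When single libraries were left out, LIF lost its call without DOX-negative replicate 3, and DUSP9, ERRFI1 and EPHA2 lost theirs without DOX-negative replicate 2 or 3. DUSP8 lost its call without any of the DOX-negative replicates, and FOSL1 kept its call in 2 of the 6 fits.

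EGR1, an immediate-early transcription factor, went the other way. It was at 171, 207 and 132 CPM in the DOX-negative and 87.7, 89.2 and 93.5 CPM in those with DOX. The DOX-negative libraries were widely spread, the DOX-positive ones nearly equal, and the groups did not overlap. The mean fell from 170 ± 37.8 to 90.1 ± 3.00 CPM (SD, n = 3 each), a log2 fold change of -0.92 (SE 0.131, edgeR adjusted p = 0.00585), which stayed between -1.07 and -0.75 when single libraries were left out. The call was lost without DOX-positive replicate 2 (edgeR adjusted p = 0.0836). DUSP1, an immediate-early phosphatase and after EGR1 the most abundant gene of the list (11.4 TPM), was at 41.7 ± 2.83 and 37.8 ± 3.80 CPM and was not called (-0.14, edgeR adjusted p = 0.42). SPRY3 and IER3 did not pass the count filter.

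The components of the cascade itself gave no call in this fit. All 27 genes of that list were tested, 0 were called by edgeR, 4 had an unadjusted p under 0.05, and the log2 fold changes ran from -0.27 to 0.32 with a median of 0.01. Over all tested genes 4.87% were called, and 3597 of 17026 had an unadjusted p under 0.05. DESeq2 called 1 of them and limma-voom 0, and without DOX-positive replicate 2 edgeR called 4. PEBP1, an inhibitor of RAF, was the most abundant at 74.0 TPM (log2 fold change -0.01, SE 0.069), followed by the kinase MAP2K2 at 48.0 TPM (0.10, SE 0.091).

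Among transcription factors that ERK acts on, 1 of 8 tested genes was called. Of all tested genes 2.91% were called higher and 1.96% lower. SRF, serum response factor, rose from 53.5 ± 1.91 to 67.4 ± 3.32 CPM (SD, n = 3 each, log2 fold change 0.33, edgeR adjusted p = 0.0269). ELK1, a partner of SRF and the most abundant of the list per length (12.2 TPM), was at 59.0 ± 4.27 and 67.5 ± 2.71 CPM and was not called (0.19, edgeR adjusted p = 0.18). Of the receptor tyrosine kinases 3 of 18 tested genes were called, 1 higher and 2 lower. FGFR1, a fibroblast growth factor receptor, rose from 2.88 ± 0.533 to 4.78 ± 0.433 CPM (0.72, edgeR adjusted p = 0.0204). The stem cell factor receptor KIT fell from 206 ± 8.19 to 163 ± 16.3 CPM (-0.33, edgeR adjusted p = 0.0425) and the insulin receptor INSR from 150 ± 3.29 to 124 ± 3.20 CPM (-0.27, edgeR adjusted p = 0.0413). ERBB3, a neuregulin receptor and the most abundant of these at 21.8 TPM, was at 222 ± 13.9 and 276 ± 28.3 CPM and was not called (0.31, edgeR adjusted p = 0.063). ERBB3 was called in 4 of its 19 alternative fits, which were those with DESeq2 (adjusted p = 0.0266), without a count filter, with the replicate block and without DOX-positive replicate 1. Without DOX-negative replicate 2 or 3, SRF, FGFR1, KIT and INSR all lost their calls, and SRF, KIT and INSR also did so without DOX-negative replicate 1. Without DOX-positive replicate 3, SRF and INSR lost theirs, as INSR did without DOX-positive replicate 1.

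**Figure D4:**
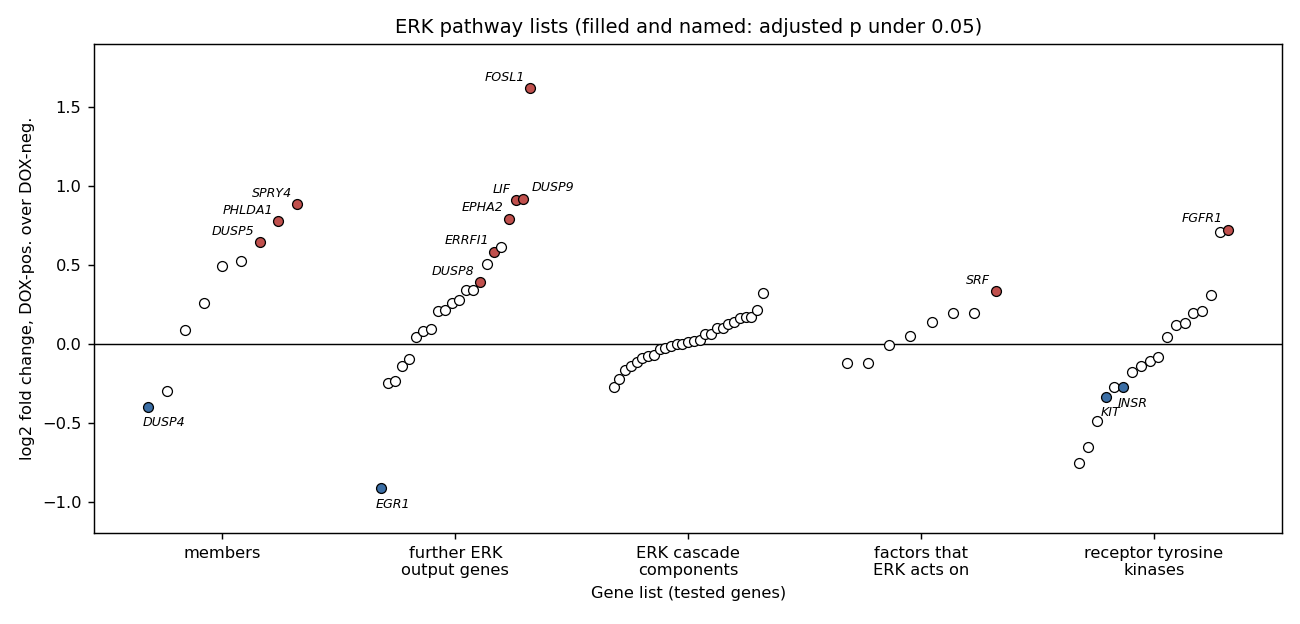
Log2 fold change of DOX-positive over DOX-negative libraries (y axis) for the tested genes of each list (x axis), 1 point per gene in order of its value, filled and named where the edgeR adjusted p was under 0.05. The members and the further ERK output genes hold both higher and lower called genes, and none of the 27 cascade components is filled.

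Over the 4 further lists 11 of 75 tested genes were called, 8 higher and 3 lower, against 4.87% of all genes (2.91% higher and 1.96% lower). Without DOX-negative replicate 2 this count was 2, and without DOX-negative replicate 3 it was 1. All 4 lists were chosen with earlier results of these data known, so these shares are not a test of the lists. Some low-abundance markers of other cell types also rose with DOX. Of 6 fibroblast markers 3 were tested, of which COL1A1 (log2 fold change 0.60) and LUM (1.06) were called higher, while COL1A2, the most abundant, was at 1.51 to 2.37 TPM in the DOX-negative and 0.680 to 1.73 TPM in the DOX-positive libraries and was not called (-0.71, edgeR adjusted p = 0.20). Of 3 endothelial markers 2 were tested, VWF (0.97) and CDH5 (0.94), and both were called higher. Of 4 leukocyte markers 2 were tested, of which CD68 (0.78) was called higher and CD14 (0.14) was not called. The summed level was 2.41 to 3.47 TPM in the DOX-negative and 2.46 to 3.64 TPM in the DOX-positive libraries for the fibroblast list, 0.321 to 0.512 and 0.717 to 0.794 TPM for the endothelial list, and 0.691 to 0.991 and 1.01 to 1.31 TPM for the leukocyte list. The markers detected reached 1330 counts in a library for COL1A2, 961 for COL1A1, 336 for CDH5, 259 for LUM, 230 for VWF, 144 for CD68 and 113 for CD14. In the same lists PECAM1 reached at most 6 counts, DCN and PDGFRB at most 2 and PTPRC at most 1, and CD3E and COL3A1 had 0 in every library. Of the 7 neuroendocrine markers NCAM1 and INSM1 were called lower (log2 fold changes of -0.50 and -0.45) and 0 were called higher. The part of these differences in the members' values was not tested.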

How the data were processed

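RNA-seq was performed on 3 DOX-negative and 3 DOX-positive H660 libraries prepared, per the labels, from total RNA with a stranded mRNA kit. The authors deposited 2 tables, one of raw counts by gene symbol and one of TPM, in which counts are scaled by gene length. Their processing notes name STAR, DESeq2 and GRCh38 (hg38). The aligner version, annotation and strand setting of the counting are not given in the sources used here. All columns were matched to samples by name, 0 were left unmatched, and 0 entries named no gene.

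Counts were filtered with filterByExpr, scaled with TMM factors and tested with edgeR 4.0.16 (R 4.3.3, glmQLFit with robust estimation, glmQLFTest, no covariate), with Benjamini-Hochberg adjustment over all 17026 genes tested. SE were derived from the F statistic. Total counts of 47620696 to 74061121 and a biological coefficient of variation of 9.58% set the precision, and TMM factors were 0.967 to 1.03. Within-group library pairs differed beyond sampling noise. The alternatives used RLE or upper-quartile factors or none, no filter and a stricter filter (at least 50 counts in at least 3 libraries), protein-coding genes only, DESeq2 1.42.0, limma-voom (limma 3.58.1), limma on log2 TPM with pseudocounts of 1 and 0.1, no robust estimation, a replicate block and leaving out each library. The code was tested on simulated counts.

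The members and lists were chosen with earlier results of these data known. Named genes are the members, MUC1, from each list up to 6 called genes by smallest adjusted p and the 2 with the highest mean TPM, and the 2 genes most like each called member. Promoters and coordinates came from RefSeq tables (GRCh38.p14). Replicates are separate libraries described as triplicate cultures. The edgeR p values weigh the group difference against variation between such libraries, with a dispersion estimate that draws on all tested genes. A further marker list is not reported here.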

Additional observations from a re-analysis of the deposited data

How the results depend on the processing

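No alternative reversed the sign of a member, and the 3 counts of calls changed as follows. Over all genes 829 were called, against 1354 with DESeq2, 30 and 35 with limma on log2(TPM + 1) and log2(TPM + 0.1) at a mean TPM of at least 1, and 0 on log2(TPM + 1) without a filter (1248 at an unadjusted p under 0.05), and 58 to 1035 when a library was left out. For members the count of 4 became 0 in each of the 3 TPM fits, of which those with a minimum TPM tested only DUSP4 and DUSP6 (0 at an unadjusted p under 0.05) and the other tested all 10 (5 at an unadjusted p under 0.05), and 0 to 3 when a library was left out. It was 3 without scaling factors, with limma-voom and with the replicate block, DUSP5 being the member lost each time, and 4 with DESeq2. For the 4 further lists the count of 11 became 16 with DESeq2 (10 higher, 6 lower), 0 in each TPM fit (4, 4 and 8 at an unadjusted p under 0.05) and 1 to 13 when a library was left out. In the TPM fits with a minimum, 332 and 329 of 11707 genes had an unadjusted p under 0.05. In the other TPM fit 1248 of 21241 genes did. The pseudocount compresses the log2 TPM change of genes as low as most members.

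The replicate block called 998 genes, of which 750 were among the 829. Same-numbered libraries did not deviate together (correlations of -0.54, 0.02 and -0.10 over 14587 genes), so the numbers were not taken to pair the libraries. With 3 libraries a group and counts of 44 to 303 for most members, changes of the size of that of ETV5 were not resolved.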
